A study of Mus musculus with 2 samples.

Results

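The cells described here were the Hlf-positive cells of lineage-depleted mouse bone marrow that carried little or no RNA of the committed lineages. A cell was a member when it had under 20% mitochondrial unique molecular identifiers (UMIs, each the count of 1 captured RNA molecule) and at least 1 Hlf UMI per 10000 UMIs of that cell (CP10K). It also had under 1 CP10K of Dntt and of Irf8, under 5 CP10K of Car1 and of Mcpt8 plus Prss34, and under 10 CP10K of Elane and of Pf4 plus Itga2b. Those measured values chose the members, so the levels of these genes describe the choice and are not results. The rule kept 343 of 10342 cells, with 161 members among 6392 cells of the hypoxia library and 182 among 3950 cells of the control library.

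Both libraries came from ICR mice, an outbred stock, aged 7 to 8 weeks. The hypoxia mice spent 13 days in an altitude chamber held at 52.93 kPa, the pressure of an altitude of 5000 m, with oxygen making up 19.5% of the chamber air. The control mice were killed on arrival, without an equal stay, so low pressure cannot be told apart from the time, age and handling that went with it. Lineage-positive marrow cells were removed on magnetic beads, and the rest was sequenced on BD Rhapsody, a microwell system that tags each cell's RNA. Nothing read here says how many mice each library pooled. There was 1 library per group, so no difference has a replicate check and none was tested. Intervals below are exact 95% intervals that cover counting error alone.

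Hlf encodes a PAR-family bZIP transcription factor whose RNA marks haematopoietic stem cells and the earliest multipotent progenitors and falls as cells commit to a lineage. Stem cells in marrow divide rarely, depend on Kit ligand, and lose Mecom and Hlf as they become progenitors that read Flt3 ligand. Marrow cells exposed to low oxygen stabilise the HIF transcription factors, and erythropoietin then drives red cell production.

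Over all cells the hypoxia library held 137400204 UMIs and the control library 121369916, with median UMIs per cell of 21584.5 and 32287. Members were shallower than that, at a median of 8820 UMIs and 3401 genes in hypoxia and 10648 UMIs and 3742 genes in control. The 2 tables shared 23 cell indices. Scrublet, a doublet caller, marked 1.81% of cells in the hypoxia table and 0.91% in the control table, and 0 of its calls were members.

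Members made up 2.52% of hypoxia cells (2.15% to 2.93%) and 4.61% of all cells in control (3.97% to 5.31%), so the shares had a ratio of 0.547 (0.439 to 0.680). The share depends on how many cells of every other kind were captured. It also depends on depth, since 1 Hlf UMI passes the limit only in a cell of at most 10000 UMIs. Of the 364 hypoxia and 321 control cells at or above the Hlf limit, 203 and 139 were dropped by at least 1 lineage limit, most often by Irf8, which took out 92 and 44. Hlf itself ran from 1.004 to 50.8 CP10K in hypoxia members (median 4.78) and from 1.02 to 60.3 CP10K in control members (median 4.89). At the edge of the rule, 21 hypoxia and 22 control members had under 1.5 CP10K of Hlf, with median Cd34 of 6.11 and 2.93 CP10K. Just outside it, 31 hypoxia and 46 control cells met every lineage limit with a Hlf UMI but under 1 CP10K, with median Cd34 of 2.69 and 2.18 CP10K.

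The members were not all stem or progenitor cells by their RNA. A list of 12 genes of T cells, natural killer cells and innate lymphoid cells (T/NK/ILC; Cd3d, Cd3e, Cd3g, Gata3 and others) reached at least 5 CP10K in 30 hypoxia and 31 control members, which is 18.6% and 17.0% of them. These cells were small, with median UMIs of 2629.5 in hypoxia and 2305 in control. They held 0 UMIs of Cd34 in both libraries. Il7r, the interleukin 7 receptor, had a UMI in 28 of 30 hypoxia and 30 of 31 control cells, and Gata3, a transcription factor of T cells and group 2 innate lymphoid cells, in 23 and 30. Il1rl1, the interleukin 33 receptor, was seen in 19 and 30 of them. A Cd3 UMI was present in 9 of the hypoxia cells and 0 of the control cells. Both the limit of 5 CP10K and this division were chosen after seeing the data.

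Hlf was read in these cells at a rate well above that of other shallow cells. Among cells with under 6000 UMIs, a Hlf UMI was present in 28 of 55 hypoxia cells (50.9%) and 32 of 55 control cells (58.2%) that had both an Il7r and a Gata3 UMI. Among all cells under that depth with under 5 CP10K of the T/NK/ILC list, it was present in 24 of 506 hypoxia cells (4.74%) and 10 of 272 control cells (3.68%). No lineage limit was applied to either set, so committed cells were not left out. The name stem and multipotent progenitor cells therefore did not cover all members, and this Il7r+ Gata3+ set is described by its genes.

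The T/NK/ILC-marker cells were set against the core members, which are the members left once these cells and a few granule- and stromal-marker cells, described next, were set aside. They had 775 genes at least 1.5-fold higher in both libraries, 9.24% of 8386 measured, and 1421 genes at least 1.5-fold lower, 16.9% of them. Fold changes across genes were taken throughout on CPM, the counts summed over cells and scaled to 1000000 per library, with 10 CPM added before the log2. The highest were Il7r, Id2, Ccr9, Cxcr6, Maf, Il2ra, Ccr2 and Rnf128, several of them receptors of lymphoid cells. Id2, a repressor of E proteins that innate lymphoid cells need, stood at 2787 CPM against 33.5 CPM in the hypoxia core members and at 3678 CPM against 4.97 CPM in the control core members. The lowest were Cd34, Mpo, Gata2, Hmga2, Ctla2a, Ccl9, Hhex and Adgrg1. Of the 22 measured stem cell transcription factors, 15 were lower and 2 higher in the T/NK/ILC-marker cells. Because the cells were chosen by T/NK/ILC genes, these contrasts describe the set.

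A further 4 hypoxia and 4 control members carried the RNA of granule-bearing or stromal cells. Neutrophil granule genes took 1532 to 1960 CP10K in 2 hypoxia cells and 1 control cell, and eosinophil genes took 1072 to 1580 CP10K in 2 and 2. A single control cell of 2587 UMIs had 912 CP10K of stromal genes and carried all 196 Cxcl12 UMIs of the control members. Without these and the T/NK/ILC-marker cells, 127 hypoxia and 147 control core members were left. They were 1.99% of hypoxia cells (1.66% to 2.36%) and 3.72% of all cells in control (3.15% to 4.36%), and these shares had a ratio of 0.534 (0.418 to 0.682). A Cd34 or Kit UMI was present in 124 of the 127 hypoxia and 142 of the 147 control core members. In core members 8 of the 12 T/NK/ILC genes were at 0 UMIs in hypoxia and 9 in control, Cd3e and Cd3g among them. The T/NK/ILC list summed to 28.5 CPM in hypoxia and 11.9 CPM in control.

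**Figure D1:**
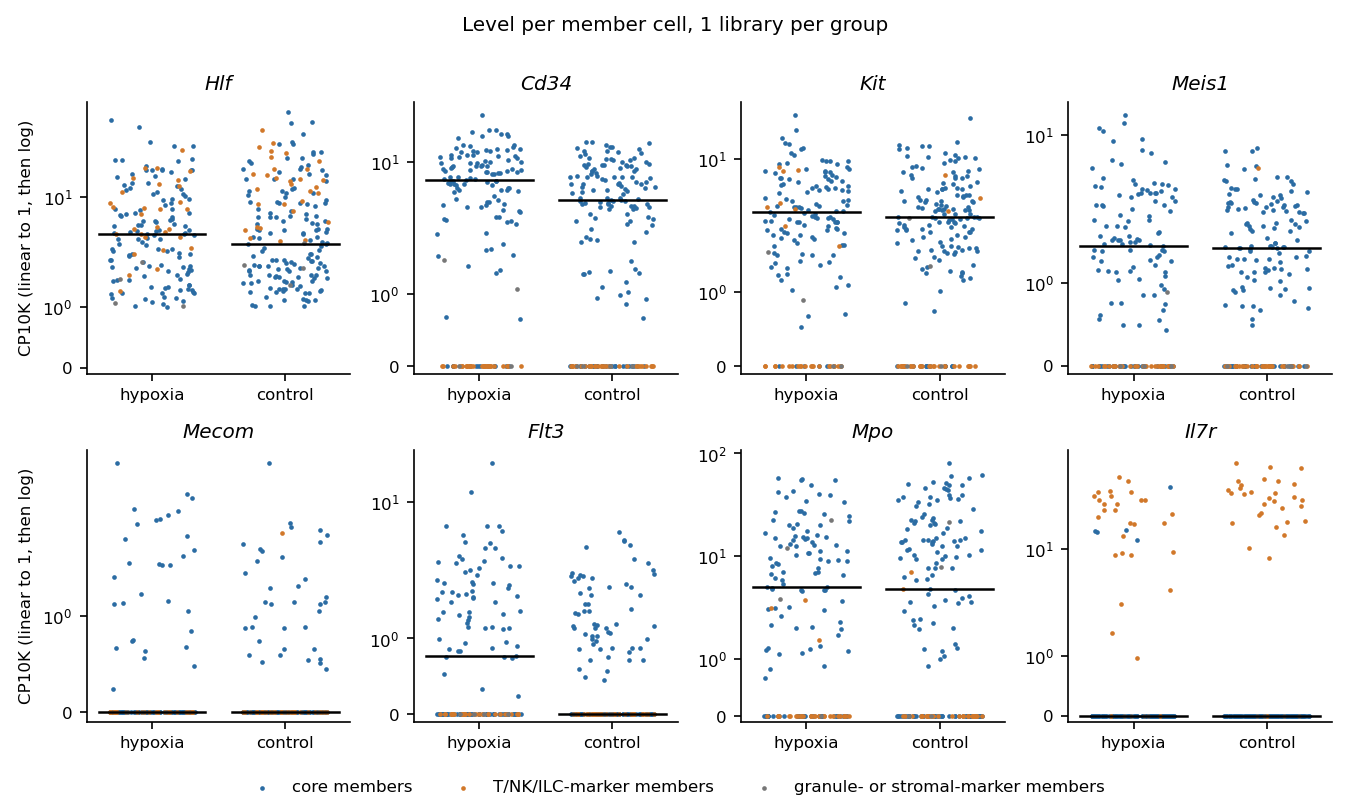
Level of 8 genes in each member cell, in CP10K on an axis that is linear to 1 and logarithmic above it, for hypoxia (left) and control (right). Points are cells coloured as core, T/NK/ILC-marker or granule- or stromal-marker members, and the black bar is the median of core members. Il7r is found almost only in T/NK/ILC-marker members, which hold no Cd34 UMI.

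The 3 stem cell markers that the rule did not use were present in core members of both libraries. Cd34, a sialomucin of progenitor cells, had 779 CPM in hypoxia and 577 CPM in control, a ratio of 1.35 (1.24 to 1.47). Meis1, a homeobox partner of the Hox proteins, had 220 CPM in hypoxia and 183 CPM in control, a ratio of 1.199 (1.03 to 1.40). Mecom, a zinc-finger factor that long-term stem cells require, had 40.6 CPM in hypoxia and 29.3 CPM in control, with a ratio of 1.38 (0.942 to 2.03) whose interval includes 1. None of the 3 reached 1.5-fold. Cd34 and Meis1 were not particular to members. Cells with no Hlf UMI that passed only the Dntt limit had 590 CPM of Cd34 in hypoxia and 416 CPM in control. Those that passed only the Pf4 plus Itga2b limit had 175 CPM of Meis1 in hypoxia and 195 CPM in control. The highest Mecom in any such group was 5.07 CPM in hypoxia and 4.86 CPM in control.

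Across all members, 328 genes were at least 1.5-fold higher in hypoxia, 3.88% of the 8454 genes that reached 50 UMIs in the 2 libraries together, and 243 were at least 1.5-fold lower, 2.87% of them. Scaling by the trimmed mean of M-values in place of the total turned that split to 254 higher and 338 lower. In core members 322 of 8210 genes were higher, 3.92%, and 271 were lower, 3.3%. The median gene stood at 0.03 on the log2 scale. In simulated libraries of this depth, 91 of 100 genes changed 2-fold and 100 of 100 changed 4-fold passed the limit, as did 32 of 8260 unchanged genes. The simulated counts held counting error alone, without differences between cells, mice or libraries. They therefore give no rate of false calls for these data.

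Transcription factors of stem cells passed 1.5-fold at shares near those of all genes in core members, 3.92% higher and 3.3% lower. Of 22 measured stem cell factors in core members, 0 were at least 1.5-fold higher and 1 was lower in hypoxia, with a median log2 ratio of 0.00. That 1 was Hoxb4, a homeobox factor able to expand stem cells, at 15.7 CPM in hypoxia and 33.3 CPM in control. Gata2, which maintains stem cells, had 420 CPM in hypoxia and 438 CPM in control. In all members, the leukaemia and stem cell factor Erg had 166 CPM in hypoxia and 167 CPM in control, and Hoxa9 had 170 CPM in hypoxia and 203 CPM in control. Lmo2, a bridging factor of the Tal1 complex, had 526 CPM in hypoxia and 484 CPM in control.

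Among 18 measured surface proteins of stem cells, 1 was higher and 3 were lower in hypoxia core members, beside 3.92% and 3.3% of all genes. The median log2 ratio of the list was 0.008. Ly6a, which encodes Sca-1, had 66.3 CPM in hypoxia and 37.3 CPM in control, a log2 ratio of 0.69. The higher Ly6a was not seen in members of 5000 to 20000 UMIs, where its log2 ratio was −0.10. The 3 lower ones were Slamf1 (CD150, a marker of long-term stem cells), Eng (endoglin, a TGF-beta co-receptor) and Esam (an adhesion molecule of stem cells and endothelium). Slamf1 had 7.84 CPM in hypoxia and 30.8 CPM in control, with a UMI in 8 of 127 hypoxia and 33 of 147 control core members. Eng had 23.5 CPM in hypoxia and 54.2 CPM in control, and Esam had 20.7 CPM in hypoxia and 38.8 CPM in control. Procr, the endothelial protein C receptor, moved less: over all members it had 25.9 CPM in hypoxia and 30.2 CPM in control.

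Shares of cells with a UMI were also taken after each core member was thinned to 5000 UMIs, leaving 120 hypoxia and 144 control cells. Flt3, the receptor of multipotent and lymphoid-primed progenitors, was seen in 55.1% of hypoxia and 41.5% of control core members, and in 45.0% (35.9% to 54.3%) and 29.2% (21.9% to 37.3%) after thinning. Cells that passed the limit of Car1, an early erythroid carbonic anhydrase, with no Hlf UMI should lack Flt3 and showed it in 1.59% and 0.963% of cells at median depths of 27020.5 and 41125.5 UMIs, and in 0.305% and 0.0509% after thinning. Cd34 was seen in 90.6% of hypoxia and 83.0% of control core members, and in 90.8% and 78.5% after thinning, against 4.29% and 3.35% of the Car1-positive cells. Slamf1 was seen in 6.30% of hypoxia and 22.4% of control core members, against 6.22% and 15.2% of the deeper Car1-positive cells. After thinning it was seen in 6 of 120 hypoxia and 18 of 144 control core members, against 1.53% and 3.31% of the Car1-positive cells.

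Genes of antigen presentation by MHC class I, the molecules that display peptides to CD8 T cells, were often higher in hypoxia. Of 18 measured in core members, 8 were at least 1.5-fold higher in hypoxia and 0 were lower, beside 3.92% and 3.3% of all genes. Their median log2 ratio was 0.47, beside 0.03 over all genes. H2-D1, a heavy chain of the classical kind, had 1909 CPM in hypoxia and 543 CPM in control, a ratio of 3.51 (3.27 to 3.77). H2-K1, the other classical gene, had 1083 CPM in hypoxia and 657 CPM in control, a ratio of 1.65 (1.53 to 1.78). H2-Q4 had 192 CPM in hypoxia and 97.5 CPM in control, a ratio of 1.97 (1.63 to 2.38). The non-classical genes H2-Q6 and H2-Q7 were almost unread in control, with 3 and 5 UMIs over all control members. H2-Q6 had 115 CPM in hypoxia members and 1.41 CPM in control members, a ratio of 81.5 (27.4 to 399), and H2-Q7 had 106 CPM in hypoxia members and 2.36 CPM in control members, a ratio of 44.8 (18.8 to 140). These class I genes are near-identical copies of one another, so how the pipeline divided reads among them is uncertain, and the mice were outbred. B2m, the shared light chain, had 1975 CPM in hypoxia and 1364 CPM in control members, and Tap1, a peptide transporter, had 56.3 CPM in hypoxia and 31.1 CPM in control members.

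The likeness of these genes extends to their promoters, which is why a 60-base stretch of each is shown from RefSeq (GRCm38.p6), 5′ to 3′ on the gene's own strand. The letters GGGATTCCC, the kappaB site of the class I enhancer, are in capitals and were searched on both strands. They occurred in 99 of 32851 promoter entries (0.301%), each searched over 250 bases before the start. A gene can have several entries. Counted by gene, with a match in any entry, they occurred in 4 of the 17 class I pathway genes that the promoter table held. All 4 are shown. H2-K1, B2m and Tap1 were chosen after their values were seen. A match is a description of letters, not a bound site or a cause.
H2-D1, chr17:35262904-35262963, plus strand: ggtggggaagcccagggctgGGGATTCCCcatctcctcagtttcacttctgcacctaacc
H2-K1, chr17:34000418-34000477, minus strand: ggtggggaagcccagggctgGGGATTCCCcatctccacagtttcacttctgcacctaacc
H2-Q6, chr17:35424658-35424717, plus strand: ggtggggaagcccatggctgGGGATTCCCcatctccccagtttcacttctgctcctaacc
H2-Q7, chr17:35439003-35439062, plus strand: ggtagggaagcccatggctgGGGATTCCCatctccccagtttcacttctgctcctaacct
The same letters stand before the RefSeq start of a gene with a ratio of 3.51 in core members, H2-D1, and of one with a ratio of 1.65, H2-K1. For H2-D1 the GENCODE gene model begins upstream of the RefSeq start, and the stretch shown lies inside that model.

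Several of the genes with the largest ratios lie within the mouse MHC. H2-D1 (chr17:35262730-35267499), H2-Q6 (chr17:35424850-35430055), H2-Q7 (chr17:35439155-35443773) and Msh5 (chr17:35028605-35046745) are among them. BC051537 (chr17:34083843-34095309) lies further off in the same region. Msh5, a MutS homologue of meiotic recombination, was among the lowest: it had 3 UMIs over hypoxia members against 179 over control members, or 1.94 CPM and 84.4 CPM, a ratio of 0.023 (0.0047 to 0.0683). BC051537, annotated as an antisense RNA, had 50.5 CPM in hypoxia and 5.19 CPM in control members. Use of strand in counting is unknown here, so its reads cannot be told apart from those of an overlapping gene.

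The other genes among the 12 highest in members were a mixed set. The long noncoding RNA Gm47015 (chr10:79412962-79417905) had 172 CPM in hypoxia members, in 100 of 161 cells, and 5.19 CPM in control members, in 7 of 182 cells. Coro2a, a coronin that binds actin, had 183 CPM in hypoxia and 18.9 CPM in control members, a ratio of 9.71 (6.96 to 13.9). Gdpd3, a lysophospholipase D, had 113 CPM in hypoxia and 17.9 CPM in control members. Both stayed apart in core members, with log2 ratios of 2.60 for Coro2a and 2.04 for Gdpd3. Gm10320 had 80.9 CPM in hypoxia and 7.07 CPM in control members, and Ms4a6c, of the membrane-spanning 4A family, had 53.7 CPM in hypoxia and 0.943 CPM in control members. Hba-a1, an alpha-globin whose reads are shared with its copy Hba-a2, had 53.1 CPM in hypoxia and 7.07 CPM in control members. In Car1-positive cells it had 1517 CPM in hypoxia and 458 CPM in control. Cells with no Hlf UMI that passed only another lineage limit also had more in hypoxia. In hypoxia and control these were 78.9 and 5.91 CPM for Irf8, 285 and 23.1 CPM for Pf4 plus Itga2b, and 25.8 and 2.57 CPM for Elane. For Dntt they were 23.4 and 0 CPM, and for Mcpt8 plus Prss34 44.2 and 30.7 CPM. The part of free globin RNA in the members' values was not tested.

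S100a6 and Chil3 owed their places to cells outside the core. S100a6, a calcium-binding protein, had 104 CPM in hypoxia and 14.6 CPM in control members, but 1273 CPM in the T/NK/ILC-marker cells of hypoxia and 18.5 CPM in hypoxia core members. Chil3, a chitinase-like protein of myeloid cells, was read in 4 hypoxia cells and 1 control cell, and in core members it had 1.43 CPM in hypoxia and 0 CPM in control. Among the 12 lowest, Cxcl12 was the same kind of gene, at 0 CPM in hypoxia members and 92.4 CPM from a single control cell.

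Genes of the immediate early response, which cells switch on within minutes of a stimulus, were lower in hypoxia. In core members 17 of 20 measured genes were at least 1.5-fold lower, 0 were higher and all 20 had a log2 ratio under 0, with a median of −0.80. Over all genes of core members, 3.3% were lower and 3.92% were higher. Fos, a subunit of AP-1, had 408 CPM in hypoxia and 1144 CPM in control core members, a ratio of 0.356 (0.325 to 0.391). Klf4, a zinc-finger factor, had 8.55 CPM in hypoxia and 38.3 CPM in control core members. Rgs1, which damps G-protein signalling, had 232 CPM in hypoxia and 590 CPM in control core members. The antiproliferative gene Btg2 had 37.8 CPM in hypoxia and 94.5 CPM in control core members, and the nuclear receptor Nr4a1 had 47.8 CPM in hypoxia and 102 CPM in control core members. In T/NK/ILC-marker members Fos had 1582 CPM in hypoxia and 1510 CPM in control.

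Of 18 measured heat shock chaperones in core members 5 were at least 1.5-fold lower and 0 were higher, with a median log2 ratio of −0.45. The shares over all core-member genes were 3.3% lower and 3.92% higher. Hsph1, a chaperone of the HSP110 family, had 62.0 CPM in hypoxia and 292 CPM in control core members, a ratio of 0.212 (0.167 to 0.266). Hspa8, the constitutive HSP70, had 649 CPM in hypoxia and 1224 CPM in control core members. Its co-chaperone Dnaja1 had 326 CPM in hypoxia and 626 CPM in control core members, and Hsp90aa1, the inducible HSP90, had 1199 CPM in hypoxia and 2206 CPM in control core members. Hspa4l was the fifth, at 80.3 CPM in hypoxia and 133 CPM in control members.

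The promoter of Hsph1, the chaperone with the lowest ratio, is shown with the letters of a heat shock element in capitals, as RefSeq gives it in GRCm38.p6 from 250 bases before the gene's start. The element was searched as GAANNTTC or TTCNNGAA on both strands. It occurred in 4218 of 32851 promoter entries (12.8%) and, counted by gene with a match in any entry, in 9 of the 17 heat shock genes in the table. Of the 5 lower ones, Hsph1, Dnaja1 and Hspa4l were in the table, while Hspa8 and Hsp90aa1 were not searched. Hsph1 had a match and Hspa4l had none. Dnaja1 had a match in the entry at chr4:40722218-40722467 and none in its other entries. The match describes letters in this window and no binding.
Hsph1, chr5:149636337-149636586, minus strand: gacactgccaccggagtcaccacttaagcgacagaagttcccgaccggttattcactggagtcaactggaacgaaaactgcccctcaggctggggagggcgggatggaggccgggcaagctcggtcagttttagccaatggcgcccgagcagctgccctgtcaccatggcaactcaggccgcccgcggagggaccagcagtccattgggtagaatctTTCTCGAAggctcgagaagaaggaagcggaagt

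The rest of the 12 lowest genes included regulators of RNA and of signalling. Cwc22, a spliceosome protein that loads the exon junction complex, had 57.0 CPM in hypoxia and 337 CPM in control members, with a UMI in 57 of 161 and 171 of 182 cells. Hes1, a repressor downstream of Notch, had 9.71 CPM in hypoxia and 55.6 CPM in control members, in 7 and 25 cells. Tsc22d1, a TGF-beta-responsive factor, had 131 CPM in hypoxia and 371 CPM in control members. The chemokine Ccl4 had 88.7 CPM in hypoxia and 254 CPM in control members, and the interleukin 6 family cytokine Osm had 17.5 CPM in hypoxia and 55.2 CPM in control members. Cd69, an early activation antigen that also retains lymphocytes in tissue, had 14.9 CPM in hypoxia and 51.4 CPM in control members. Arrdc3, an alpha-arrestin, had 22.7 CPM in hypoxia and 67.4 CPM in control members.

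**Figure D2:**
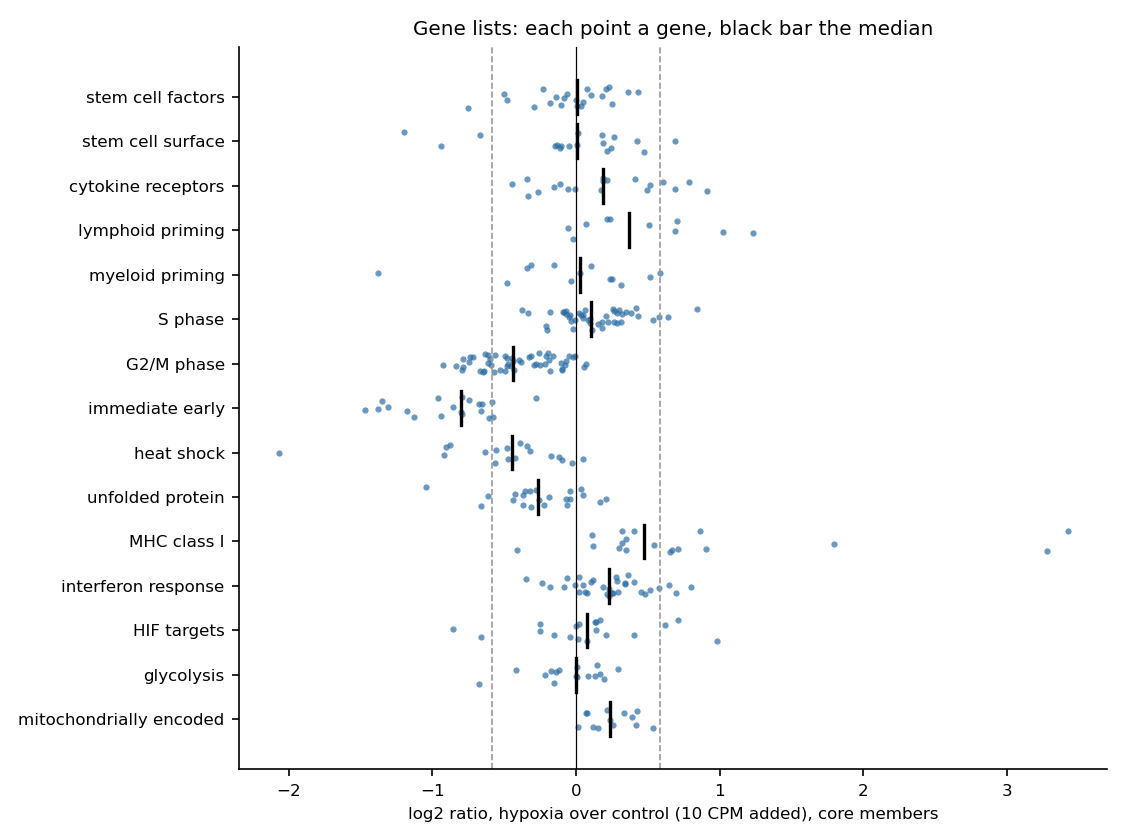
Log2 ratio of hypoxia over control in core members for each measured gene of 15 lists, with 10 CPM added; points are genes, black bars medians and dashed lines 1.5-fold. Immediate early genes lie wholly under 0 with a median of −0.80, G2/M genes have a median of −0.44 and MHC class I genes one of 0.47, while stem cell factors centre on 0.00.

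Many genes of mitosis were lower in hypoxia, and genes of DNA replication passed 1.5-fold at shares near those of all genes. Those shares were 3.92% higher and 3.3% lower in core members. Of 52 measured G2/M-phase genes in core members, 16 were at least 1.5-fold lower in hypoxia, 0 were higher and 50 had a log2 ratio under 0, with a median of −0.44. Birc5, or survivin, had 103 CPM in hypoxia and 205 CPM in control core members, a ratio of 0.504 (0.414 to 0.611). Cenpf, a kinetochore protein, had 124 CPM in hypoxia and 229 CPM in control core members, and cyclin B1, Ccnb1, had 70.6 CPM in hypoxia and 129 CPM in control core members. Of 44 S-phase genes, 2 were higher, 0 were lower and 30 had a log2 ratio above 0, with a median of 0.11. The 2 were Chaf1b, a chromatin assembly factor at 64.9 CPM in hypoxia and 31.8 CPM in control core members, and Tipin, a replication fork protein at 92.6 CPM in hypoxia and 54.2 CPM in control members. Pcna, the replication clamp, had 378 CPM in hypoxia and 258 CPM in control core members.

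Cycling cells were counted by their messages. A Mki67 or Top2a UMI was found in 63.8% of hypoxia and 72.8% of control core members. Thinned to 5000 UMIs, the shares were 63.3% and 64.6%. Cell cycle inhibitors moved both ways. Cdkn1a, which encodes p21, had 50.5 CPM in hypoxia and 114 CPM in control members, while the retinoblastoma gene Rb1 had 69.3 CPM in hypoxia and 29.7 CPM in control members and its relative Rbl2 had 97.1 CPM in hypoxia and 51.9 CPM in control members. Of 14 measured genes of quiescence and cell cycle exit in core members, 2 were higher and 4 were lower, with a median of −0.03. The shares over all core-member genes were 3.92% higher and 3.3% lower.

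Of 19 measured cytokine receptors in core members, 4 were at least 1.5-fold higher in hypoxia and 0 were lower, with a median log2 ratio of 0.19. The shares over all core-member genes were 3.92% higher and 3.3% lower. Flt3 had 138 CPM in hypoxia and 81.6 CPM in control core members, a ratio of 1.69 (1.36 to 2.09). Il1r1, the interleukin 1 receptor, had 28.5 CPM in hypoxia and 10.4 CPM in control core members, and Ifngr2, a chain of the interferon gamma receptor, had 36.4 CPM in hypoxia and 16.9 CPM in control core members. The fourth was Csf2rb2, a beta chain of the interleukin 3 receptor, at a log2 ratio of 0.61. Il7r was not in this count, since its 50-UMI minimum was not met in core members, where 5 hypoxia cells and 0 control cells had it.

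Genes of lymphoid priming were 4 higher and 0 lower of 10 measured in core members, beside 3.92% and 3.3% of all genes. Their median log2 ratio was 0.37. Beside Flt3 the higher ones were Lsp1, a leukocyte actin-binding protein, Ighm, whose sterile transcript precedes rearrangement, and Ets1. Lsp1 had 107 CPM in hypoxia and 39.8 CPM in control core members. Ighm had 28.5 CPM in hypoxia and 8.95 CPM in control core members, and Ets1 had 31.4 CPM in hypoxia and 15.4 CPM in control core members. Il7r was seen in 5 hypoxia and 0 control core members, and these 5 cells had 2043 to 2677 UMIs and 0 UMIs of Cd34, Mecom, Meis1 and Mpo. The list reached 50 CP10K in 3 hypoxia and 0 control core members, with highest values of 67.3 and 33.6 CP10K. The part of these cells in the list's values was not tested. The 13 myeloid genes had 1 higher and 1 lower member and a median of 0.03, with the granule enzyme Mpo at 1395 CPM in hypoxia and 1553 CPM in control core members.

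Basophil and mast cell genes were 3 higher and 0 lower of 6 measured in core members, beside 3.92% and 3.3% of all genes. Cpa3, the mast cell carboxypeptidase, had 388 CPM in hypoxia and 184 CPM in control core members. Ms4a2, the beta chain of the high-affinity IgE receptor, had 135 CPM in hypoxia and 67.2 CPM in control core members, and the histidine decarboxylase gene Hdc had 101 CPM in hypoxia and 58.2 CPM in control core members. Prss34, a basophil protease used in the rule, had 37.8 CPM in hypoxia and 4.97 CPM in control core members, and in Mcpt8- or Prss34-positive cells it had 31549 CPM in hypoxia and 24241 CPM in control. A like difference was seen in cells with no Hlf UMI that passed only the Dntt, Irf8, Elane, Car1 or Pf4 plus Itga2b limit. Prss34 had 19.3 to 35.0 CPM over these groups in hypoxia and 3.45 to 6.16 CPM in control. The highest core members had 159 CP10K of the 13-gene basophil and mast cell list in hypoxia and 182 CP10K in control, against medians of 4.68 and 5.997 CP10K, and 7 hypoxia and 6 control core members had at least 50 CP10K. The part of these few cells, or of free basophil RNA, in these values was not tested. Of 10 erythroid genes 3 were higher and 0 lower, namely the globins Hba-a1 and Hbb-bs and the red cell membrane gene Ermap. The 9 megakaryocyte genes had 1 higher and 1 lower, with a median of 0.08.

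Signals between stem cells and their niche were split. Angpt1, a ligand that stem cells secrete and that limits leakiness of marrow vessels, had 485 CPM in hypoxia and 230 CPM in control core members, a ratio of 2.11 (1.87 to 2.38). Itga4, the alpha-4 integrin that holds progenitors in marrow, had 418 CPM in hypoxia and 259 CPM in control members, whereas the chemokine receptor Cxcr4 had 106 CPM in hypoxia and 174 CPM in control members. Of 16 measured niche and homing genes, 2 were higher and 2 were lower in core members, beside 3.92% and 3.3% of all genes. Ccl9, a chemokine, had 453 CPM in hypoxia and 140 CPM in control core members, a ratio of 3.24 (2.81 to 3.74).

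Targets of the HIF factors were divided. Of 19 measured in core members, 3 were higher and 2 were lower, beside 3.92% and 3.3% of all genes. Their median log2 ratio was 0.07. Pdk1, the kinase that keeps pyruvate out of mitochondria, had 77.7 CPM in hypoxia and 34.3 CPM in control core members, a ratio of 2.26 (1.66 to 3.11). Egln3, an oxygen-sensing prolyl hydroxylase, had 86.2 CPM in hypoxia and 48.7 CPM in control core members. The collagen prolyl hydroxylase P4ha1 went the other way, with 22.01 CPM in hypoxia and 41.0 CPM in control members. Of 16 glycolytic genes 1 was lower and 0 were higher, with a median of 0.00. It was Gpi1, glucose phosphate isomerase, at 173 CPM in hypoxia and 289 CPM in control members. All 13 mitochondrially encoded messages lay above 0 with a median of 0.24, and none reached 1.5-fold.

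The remaining stress and defence lists are set beside all genes of core members, of which 3.92% were higher and 3.3% were lower. Interferon response genes were 3 higher and 0 lower of 33 in core members, with a median of 0.23, and Ifit2 and Lgals3bp were among them. Of 22 genes of the unfolded protein response, 3 were lower and 0 were higher, led by the chaperone cofactor Sdf2l1 with 33.7 CPM in hypoxia and 77.3 CPM in control members. Of 11 p53 targets 3 were lower, Cdkn1a, Bbc3 and Plk2, and 0 were higher. None of 21 antioxidant genes reached 1.5-fold.

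Core members varied among themselves along the level of Hlf. With Hlf at 1 to 2, 2 to 4 and at least 4 CP10K there were 29, 27 and 71 hypoxia cells and 41, 35 and 71 control cells. Mecom had 18.3, 27.2 and 61.2 CPM over these steps in hypoxia, and 8.03, 7.92 and 56.6 CPM in control. Ly6a had 2.62, 10.9 and 135 CPM over the steps in hypoxia, and 8.03, 21.8 and 66.8 CPM in control. In both libraries the cells with most Hlf thus had the highest levels of Mecom and Ly6a. The 5 hypoxia core members with an Il7r UMI, at 4.81 to 22.4 CP10K of Hlf, were all in the top step. Their part in its Ly6a was not tested, and 0 control core members had an Il7r UMI. Gata1, the erythroid and megakaryocytic factor, ran the other way, at 102, 65.2 and 12.2 CPM in hypoxia and 109, 65.4 and 17.0 CPM in control. The difference in Flt3 was carried by the lower steps, where it had 107 and 112 CPM in hypoxia and 11.2 and 37.6 CPM in control, while at the top step it had 170 CPM in hypoxia and 156 CPM in control.

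A division by Flt3 at 1 CP10K separated lineages. It gave 55 positive and 72 negative hypoxia cells and 43 positive and 104 negative control cells. Positive cells had 76 genes at least 1.5-fold higher in both libraries, 0.926% of 8209, and 92 lower, 1.12% of them. Higher ones were led by the chemokine Ccl3, at 243 CPM in positive and 34.0 CPM in negative hypoxia cells and at 195 CPM in positive and 38.3 CPM in negative control cells, followed by Il1r1, Dusp5, Trp53i11, Ighm, Basp1, Ipcef1 and Begain. Lower ones were led by Ms4a2, at 19.0 CPM in positive and 216 CPM in negative hypoxia cells and at 0 CPM in positive and 95.7 CPM in negative control cells, followed by Mfsd2b, Trib2, Il1rl1, Gata1, Gzmb, Hdc and Mt2. Of the lists, 5 of 6 basophil and mast cell genes and 4 of 10 erythroid genes were lower in Flt3-positive cells of both libraries.

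A division by a Mki67 or Top2a UMI gave 81 cells with and 46 without in hypoxia, and 107 with and 40 without in control. Cells with such a UMI had 292 genes higher in both libraries, 3.56% of 8208, and 111 lower, 1.35% of them. Those without one were shallower, at medians of 7664.5 UMIs in hypoxia and 8705 UMIs in control. The lowest gene in cycling cells was Ly6a, at 25.9 CPM with and 184 CPM without in hypoxia, and at 26.7 CPM with and 80.4 CPM without in control. Junb, Fosb, Meg3, Cebpb, Insr, Klf4 and Rhob followed, among them 3 immediate early genes, Junb, Fosb and Klf4. Of the lists, 5 of 17 long-term stem cell genes and 7 of 20 immediate early genes were lower in the cycling cells of both libraries.

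Of the genes followed over these subsets of core members, some kept their direction and others did not. Over the 3 Hlf steps and both divisions, the log2 ratio of Fos lay between −1.70 and −1.34, that of H2-D1 between 1.64 and 1.94 and that of Hsph1 between −2.38 and −1.64. Angpt1 ranged from 0.56 to 1.496. The log2 ratio of Ly6a was −0.52 at 1 to 2 CP10K of Hlf, −0.61 at 2 to 4 CP10K and 0.91 at 4 CP10K or more, on 1, 4 and 88 UMIs in hypoxia and 5, 11 and 59 UMIs in control. That of Flt3 was 2.47, 1.35 and 0.11 over the same steps, and that of Arrdc3 was −0.33, −0.66 and −1.89. H2-D1 was also higher in T/NK/ILC-marker members, at 5478 CPM in hypoxia and 1303 CPM in control.

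Other marrow cells served for comparison, taken as cells with no Hlf UMI that passed exactly 1 of the lineage limits. The genes that most set members above every comparison group in both libraries were led by Spns2, a sphingosine-1-phosphate exporter, with 172 CPM in hypoxia and 172 CPM in control members and at most 56.5 CPM and 40.1 CPM in Dntt-positive cells. Gcnt2, a glycosyltransferase, had 161 CPM in hypoxia and 157 CPM in control members. Mdga1, Dach1, Kit, Adgrl4, Glul, Muc13, Nceh1 and Foxo3 were among the 15 as well. Ngp came from the granule-marker cells, with 7.13 CPM in hypoxia and 7.46 CPM in control core members, and Gata3 from the T/NK/ILC-marker cells.

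Many of the differences between hypoxia and control were shared by those other cells. H2-D1 had log2 ratios of 1.73 to 2.10 over the 6 comparison groups, Hsph1 ratios of −2.63 to −1.43, Cwc22 ratios of −2.57 to −1.65 and Gm10320 ratios of 2.26 to 2.81. The immediate early list had medians of −1.30 to −0.23 and MHC class I medians of 0.37 to 0.50. Coro2a and Msh5 were not shared by Car1-positive cells: Coro2a had 1.09 CPM in hypoxia and 1.23 CPM in control Car1-positive cells, and Msh5 had 1.82 CPM in hypoxia and 2.27 CPM in control Car1-positive cells, so both were barely read there. In Elane-positive cells Coro2a was read at 41.9 CPM in hypoxia and 36.7 CPM in control, a ratio of 1.14 (0.871 to 1.49). It was higher in hypoxia in the remaining comparison groups, and Msh5 was lower in all groups but the Car1-positive cells. Tsc22d1 was lower in hypoxia members and higher in Pf4- or Itga2b-positive cells, at 3664 CPM in hypoxia and 2245 CPM in control, and in Car1-positive cells, at 155 CPM in hypoxia and 94.4 CPM in control. Arrdc3 had log2 ratios of −0.22 to 0.49 in the comparison groups, beside −1.17 in core members, but it depended on the limit of Hlf and was 0.18 in members taken at 0.5 CP10K or more. Whether any of these contrasts differs between kinds of cell was not tested.

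**Figure D3:**
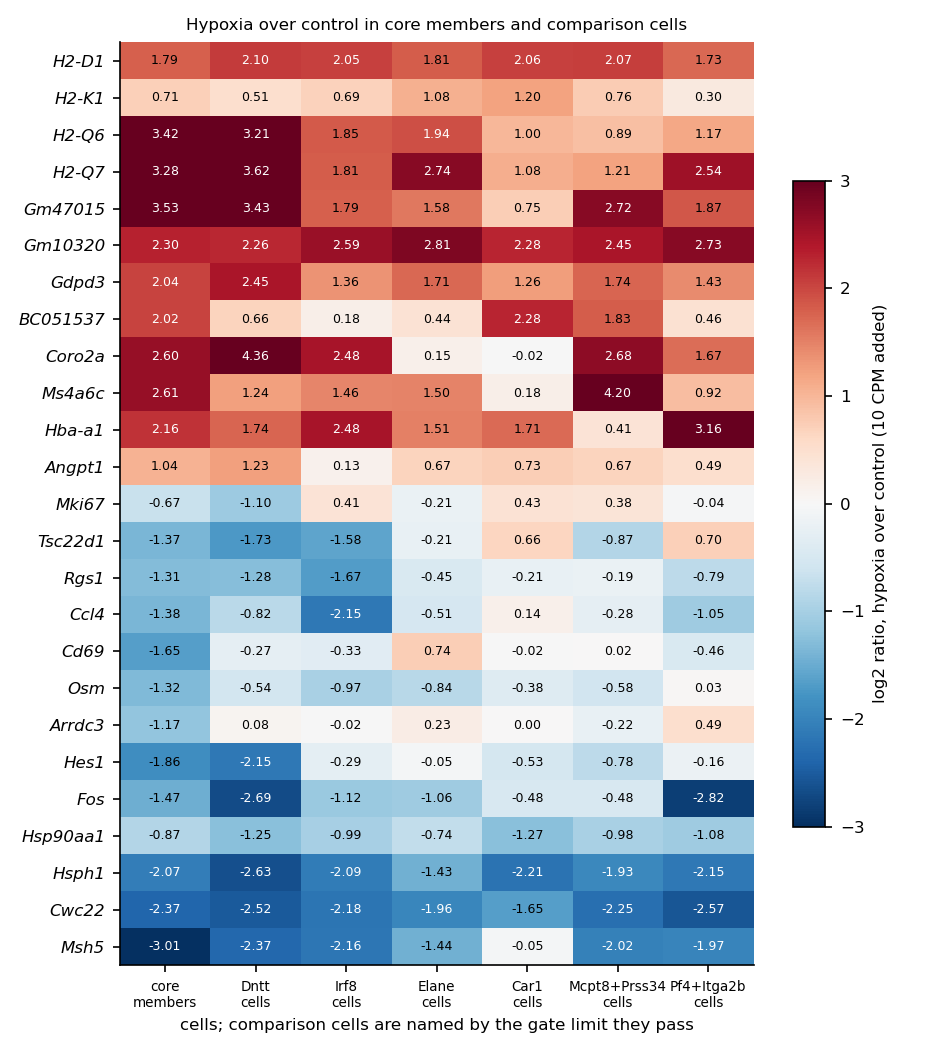
Log2 ratio of hypoxia over control (10 CPM added) for 25 genes, in core members at the left and in 6 groups of comparison cells, red where higher in hypoxia and blue where lower. H2-D1 is red and Hsph1 and Cwc22 are blue in all 7 columns.

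G2/M genes behaved otherwise. Their median log2 ratio was −0.44 in core members, −0.19 in Dntt-positive, −0.11 in Elane-positive and −0.13 in Pf4- or Itga2b-positive cells. It was 0.29 in Irf8-positive, 0.16 in Car1-positive and 0.19 in Mcpt8- or Prss34-positive cells, where most of the list lay above 0. Mki67, chosen for this comparison after its values were seen, had 290 CPM in hypoxia and 466 CPM in control core members, against 592 CPM in hypoxia and 444 CPM in control Irf8-positive cells. Its fall was not particular to core members. In hypoxia and control it had 204 and 450 CPM in Dntt-positive cells and 214 and 249 CPM in Elane-positive cells. Pf4- or Itga2b-positive cells had 295 and 303 CPM. It was higher in hypoxia in Car1-positive cells, at 749 and 555 CPM, and in Mcpt8- or Prss34-positive cells, at 566 and 432 CPM.

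**Figure D4:**
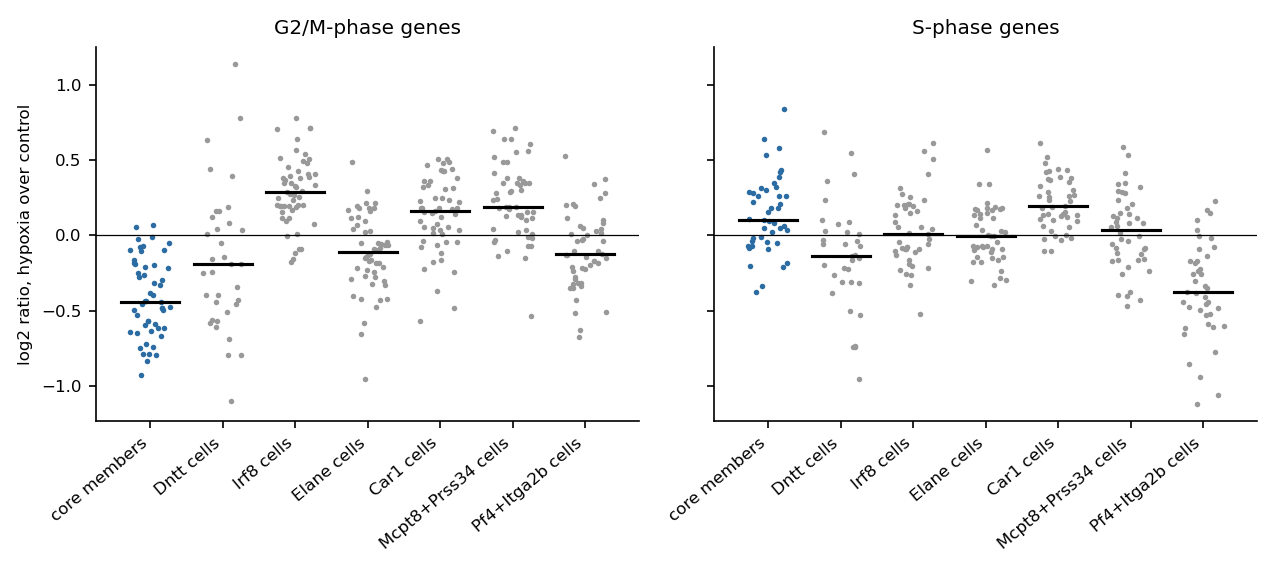
Log2 ratio of hypoxia over control for G2/M-phase genes (left) and S-phase genes (right), each point a gene and each black bar a median, in core members (blue) and comparison cells (grey). G2/M genes of core members have a median of −0.44, while those of Irf8-positive cells have one of 0.29.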

How the data were processed

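The deposited tables held UMI counts per cell and gene, 1 table per library, made by the authors. Per the file headers they ran version 1.7.1 of the BD WTA Rhapsody Analysis Pipeline, with GENCODE vM19 genes on the GRCm38 build. Bowtie2 comes from the submitters' processing notes. The method of cell calling was not given in the sources read. From these counts, CP10K per cell and CPM (counts per 1000000 UMIs) per summed group were computed with Python 3.11.15, numpy 2.4.6, pandas 2.3.3 and scipy 1.17.1. With 1 library per group no test was run. A gene was called at 1.5-fold on log2(CPM + 10), where it reached 50 UMIs in the 2 libraries together, the genes of the rule left out. Shares have exact Clopper-Pearson intervals, CPM exact Poisson intervals and ratios exact conditional intervals, all at 95% and for counting error only. Thinning kept 5000 UMIs per cell. Doublets were scored with Scrublet in scanpy 1.11.5 and not removed. The calling rule was tested on simulated counts that held counting error alone. Figures were drawn with matplotlib 3.10.9. Gene positions and promoters came from GENCODE and RefSeq tables of the same build.

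The text names the stem cell markers, the 12 highest and 12 lowest genes with at least 50 CPM in a library, up to 5 genes of each list by absolute log2 ratio, any stem cell factor, surface protein or cytokine receptor, the 15 genes highest over comparison cells and the 8 highest and lowest of each division. Others are said to be chosen after seeing values. The members and gene lists were chosen with earlier results of these data known. The granule gene list, the T/NK/ILC limit of 5 CP10K and the granule and stromal limit of 100 CP10K were chosen after seeing the data. Alternatives covered scaling, pseudocount, minimum counts, depth, thinning, the Hlf limit and subsets of members.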

Additional observations from a re-analysis of the deposited data

Results flagged for a closer look

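The direction of the cell cycle lists differed between kinds of cell, and the differences were not tested. The median log2 ratio of hypoxia over control for G2/M genes was −0.44 in core members, with 50 of 52 genes under 0, against 0.29 in Irf8-positive, 0.16 in Car1-positive and 0.19 in Mcpt8- or Prss34-positive comparison cells, with 47 of 53, 40 of 53 and 42 of 52 genes above 0. For S-phase genes it was 0.11 in core members and −0.37 in Pf4- or Itga2b-positive cells, where 36 of 41 genes lay under 0. Median depth was lower in hypoxia in all of these cells, at 9962 and 11899 UMIs in core members, 14184.5 and 19462 UMIs in Irf8-positive cells and 27020.5 and 41125.5 UMIs in Car1-positive cells of hypoxia and control.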

How the results depend on the processing

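The ratio of member shares, 0.547, was 0.388 in cells of 5000 to 20000 UMIs and lay between 0.504 and 0.561 under every other alternative. Of the counts of genes past 1.5-fold over all members, 328 higher and 243 lower, a mean of per-cell CPM gave 366 lower, a pseudocount of 1 CPM gave 616 higher and 470 lower, and one of 50 CPM gave 58 and 59. The cause was not tested. Of 94 called genes followed, 33 stayed past 1.5-fold under every alternative and 80 kept their sign. The medians of immediate early (−1.02 to −0.66), heat shock (−0.52 to −0.37), MHC class I (0.34 to 0.55) and G2/M genes (−0.47 to −0.28) kept their sign under every alternative. Signs reversed as follows, and the cause was not tested. With Hlf at 0.5 CP10K or more, Arrdc3 was 0.18 and Nfkbia 0.14 on the log2 scale. In members of 5000 to 20000 UMIs Ly6a was −0.10. In Flt3-positive members basophil and mast cell genes had a median of −0.054 and Gda was 0.025. After thinning Ermap was −0.039 and the stromal list 0.060. With at least 2 Hlf UMIs the stromal list was 0.13, and Hlf of at least 2 CP10K gave Ear1 −0.25, Epx −3.18 and Prg2 −6.08, the 2 eosinophil-marker members of hypoxia having Hlf of 1.79 and 1.09 CP10K. In core members the stromal list was 0.11, and Ccr2 was −0.069 there and −0.072 without T/NK/ILC-marker members. No paired analysis was possible because each group has 1 library. With 1 library per group, no replicate could be left out.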

Other observations

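Lists of other cell types gave few measured genes in members. The single measured B lineage gene had a log2 ratio of 0.04, and the list of 9 summed to 19.4 CPM in hypoxia and 26.9 CPM in control members, with Ms4a1, Pax5, Vpreb3 and Igll1 at 0 UMIs in both. MHC class II genes were 1 higher and 0 lower of 2 measured. Survival and death genes were 1 lower and 0 higher of 9 in members, with a median of −0.14. The monocyte, dendritic cell and macrophage list summed to 200 CPM in hypoxia and 136 CPM in control core members, with Siglech at 0 UMIs in both. Of 12 measured inflammatory genes in core members 1 was higher, Ccl9, and 3 were lower, with a median of 0.08. Among the genes of the oxygen-sensing machinery 2 of 7 were higher and 0 were lower in core members. Over all genes, 3.88% were higher and 2.87% were lower in members, and 3.92% and 3.3% in core members.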
